A study of Homo sapiens with 24 samples.

Results

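The 10 genes described here encode ATP-binding cassette (ABC) transporters, namely *ABCA1*, *ABCA5*, *ABCA7*, *ABCA12*, *ABCB1*, *ABCB4*, *ABCC1*, *ABCC2*, *ABCC3* and *ABCG2*. They were taken by name, as every probe whose transcript accession belonged to 1 of them, from the 31204 genes for which the array had a named probe, and 13 probes were found, 2 each for *ABCA1*, *ABCB1* and *ABCC3* and 1 for each of the others. Levels were measured on 24 one-colour Agilent microarrays of PLC/PRF/5 and SNU-449, 2 established lines derived from human hepatocellular carcinoma (HCC). Each line gave 4 groups of 3 independent cultures, all starved of serum overnight and harvested after 16 h: untreated control cells, cells given 1 ng/mL recombinant human TGFβ1, cells given 10 µM galunisertib (LY2157299), and cells given both. Galunisertib blocks the kinase activity of the type I receptor for TGFβ. Each line stands for 1 tumour only, and all the cells were grown in culture without other liver cell types. RNA was taken from whole cultures, in which fewer cells with a transcript and less of it per cell cannot be told apart.

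ABC transporters use the energy of ATP to move substrates across membranes, most of them out of the cell. In hepatocytes, ABCC2 (MRP2) exports conjugated bilirubin, glutathione conjugates and many drugs across the canalicular membrane into bile, where ABCB1 (P-glycoprotein, MDR1) and ABCG2 (BCRP) also export drugs and ABCB4 (MDR3) delivers phosphatidylcholine. ABCC1 (MRP1) and ABCC3 (MRP3) export conjugates across the basolateral membrane towards blood. ABCA1 loads cholesterol and phospholipid onto apolipoprotein A-I, ABCA7 is its close relative and exports phospholipid, ABCA12 carries lipids for the barrier of the skin, and ABCA5 resides in lysosomes and late endosomes. Several of the exporters are known for their part in resistance to cancer drugs.

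Intensities were scaled to the 75th percentile of each array and taken to log2, so that a level of 0 equals that percentile and 1 unit is a 2-fold difference. Levels of different probes cannot be compared, because probes differ in brightness. A probe was measured in a group where the scanner software called it well above background on all 3 arrays. Lower values were raised to a floor at a log2 of -4.13, and where 1 side of a comparison was not well above background the difference is given as at least N-fold, from the mean of the bright group over the higher of the weakest signal well above background and the dim signal on each array. Differences between groups were tested with limma across all genes, and a gene is called where the Benjamini-Hochberg adjusted p is below 0.05. Replicates share a slide across groups, and each group had the same place on every slide. Arrays with TGFβ lay in another row than those without it, and galunisertib and the lines lay in columns of their own, so that the place on the slide cannot be told apart from TGFβ, galunisertib or line.

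Genes known to respond to TGFβ (*SMAD7*, *SKIL* and *PMEPA1*) were checked first. TGFβ raised 3 of 3 in PLC/PRF/5 and 2 of 3 in SNU-449, and galunisertib added to TGFβ lowered 3 of 3 in each line. In the presence of galunisertib TGFβ still raised 3 of 3 in SNU-449, and 0 of 3 in PLC/PRF/5. The hepatocyte markers *APOB* and *HNF4A* were well above background on 12 of 12 PLC/PRF/5 arrays and 0 of 12 SNU-449 arrays, *ALB* on 12 and 2, whereas *TTR*, *SERPINA1* and *APOA1* were on 12 and 12. The mean levels of the latter 3, by their brightest probe, were 4.19, 8.73 and 4.56 in PLC/PRF/5 and -3.00, -2.90 and -2.62 in SNU-449. SNU-449 thus lacked some of these hepatocyte markers and had the others at far lower levels. Of the markers of cells that the cultures should lack, *PECAM1* (endothelium) was well above background on 0 of 24 arrays and *CDH5* (endothelium) on 8 PLC/PRF/5 and 5 SNU-449 arrays at mean levels of -3.21 and -3.60, and 1 of the 5 probes of *PTPRC* (leukocytes) was so on all 12 PLC/PRF/5 arrays, at -2.95, and on 11 of 12 SNU-449 arrays, at -2.99.

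The transporters of untreated cells were then compared. SNU-449 had *ABCB1*, *ABCB4* and *ABCA12*, which passed background on 0 of 12 PLC/PRF/5 arrays, and far more *ABCC3*, whereas PLC/PRF/5 had *ABCG2*, which passed background on 0 of 12 SNU-449 arrays, and more *ABCC2* and *ABCA5*. Of the 10 genes, 9 were called, 5 higher in SNU-449 and 4 higher in PLC/PRF/5. *ABCB1*, *ABCB4*, *ABCA12* and *ABCG2* entered the test only through the line in which they were well above background. Their calls were therefore close to fixed in advance and add no support to the count. Of all 17903 genes tested, 68.5% were called, so that a count of this size is near what the array as a whole gave. The sizes of the differences, shown in the plot of untreated cells, ranged from 1.23-fold for *ABCC1* to at least 68.3-fold for *ABCB1*.

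**Figure D1:**
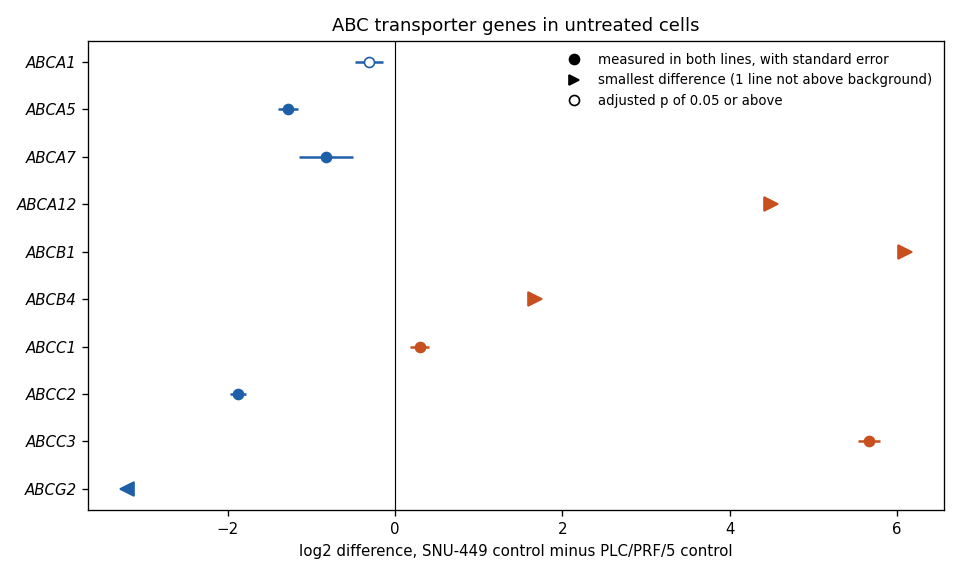
Difference in log2 level between untreated SNU-449 and untreated PLC/PRF/5 cells for the 10 ABC transporter genes (3 arrays per line). Circles show genes measured in both lines with the standard error, open where the adjusted p was 0.05 or above, and triangles show the smallest difference for genes not well above background in 1 line. *ABCB1*, *ABCC3* and *ABCA12* lie farthest to the right (higher in SNU-449), and *ABCG2* and *ABCC2* farthest to the left (higher in PLC/PRF/5).

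Among the drug exporters, *ABCB1* stood at 1.87, 2.65 and 2.01 on the 3 SNU-449 control arrays and did not rise above background on those of PLC/PRF/5, a difference of at least 68.3-fold (limma, adjusted p = 9.9e-19). Its second probe gave at least 16.6-fold, and *ABCB4*, which lies next to *ABCB1* on chromosome 7, at least 3.19-fold (adjusted p = 9.8e-11). *ABCB4* was dim even in SNU-449, at -2.16, -2.28 and -2.30. *ABCG2* showed the opposite pattern, with levels of -0.89, -1.03 and -0.87 in PLC/PRF/5, at least 9.19-fold above SNU-449 (adjusted p = 4.4e-18). For *ABCB1*, *ABCB4* and *ABCG2* the adjusted p was computed with the dim line set to the floor, where values had no spread. The floored arrays also lower the spread that the fit shares over all groups. These adjusted p values thus do not measure the spread of replicates, nor do they test the smallest difference quoted. Each line thus had a drug exporter that the arrays did not measure in the other.

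*ABCC3*, the basolateral exporter, was at 3.28, 3.38 and 3.37 in SNU-449 and at -2.31, -2.19 and -2.46 in PLC/PRF/5, a log2 difference of 5.66 ± 0.13 (SE, 50.7-fold, adjusted p = 1.3e-18). Its second probe, which targets another transcript, was not well above background in PLC/PRF/5 and was at least 119-fold higher in SNU-449. The canalicular *ABCC2* was at 3.75, 3.68 and 3.77 in PLC/PRF/5 and at 1.77, 1.96 and 1.85 in SNU-449, lower in SNU-449 by 3.67-fold (log2 difference -1.87 ± 0.092, adjusted p = 4.9e-13). The groups were thus far apart for both genes, in opposite directions. *ABCC1* differed little, at 0.11, 0.08 and -0.18 in PLC/PRF/5 and 0.43, 0.50 and -0.04 in SNU-449, and the arrays overlapped (log2 difference 0.29 ± 0.11, adjusted p = 0.023). That call was lost without replicate 3 of PLC/PRF/5 (log2 difference 0.20, adjusted p = 0.13) or without replicate 1 or 2 of SNU-449 (0.23 and 0.19).

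The lipid transporters also differed. *ABCA12* was at 0.38, 0.55 and 0.80 in SNU-449, at least 22.5-fold above PLC/PRF/5 (adjusted p = 2.1e-18). That adjusted p has the same limit as those of *ABCB1*, *ABCB4* and *ABCG2*, because PLC/PRF/5 was at the floor. *ABCA5* was higher in PLC/PRF/5, at 0.60, 0.79 and 0.89 against -0.51, -0.60 and -0.47 (log2 difference -1.28 ± 0.12, adjusted p = 8.1e-09). *ABCA1* did not pass the test, at 0.84, 0.84 and 0.94 in PLC/PRF/5 and 0.40, 0.73 and 0.55 in SNU-449 (adjusted p = 0.099), although the arrays did not overlap. *ABCA7* had 1 array that stood apart, PLC/PRF/5 control replicate 1, at -1.32 where replicates 2 and 3 were at 0.58 and 0.52. The SNU-449 levels of *ABCA7* were -1.13, -0.79 and -0.77, giving a log2 difference of -0.82 ± 0.32 (adjusted p = 0.029) with that array and -1.45 (adjusted p = 1.7e-07) without it. Without replicate 2 or 3 of PLC/PRF/5 or replicate 1 of SNU-449 the *ABCA7* call was lost (adjusted p = 0.19, 0.17 and 0.098).

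**Figure D2:**
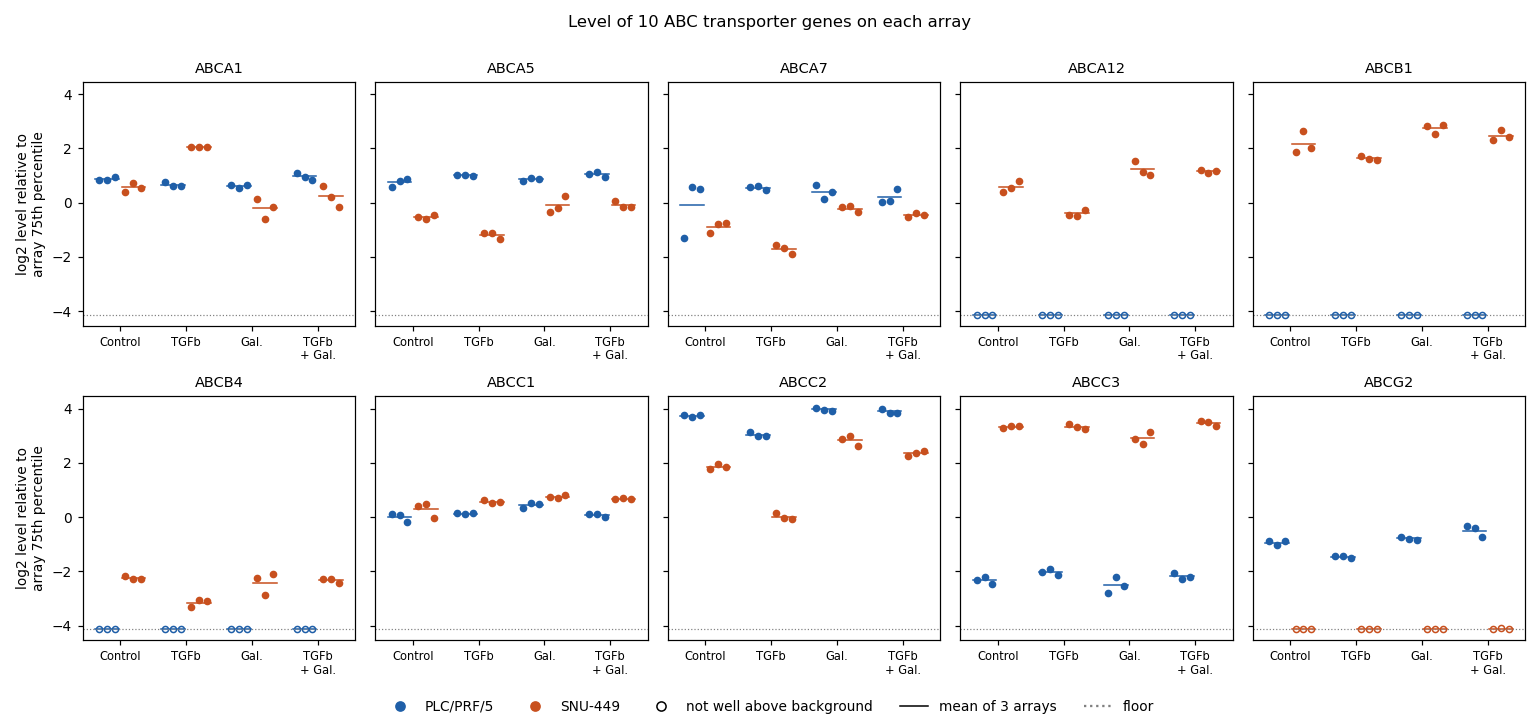
Level of each ABC transporter gene on each of the 24 arrays, as log2 of the intensity over the array's 75th percentile, by treatment (Gal., galunisertib). Points are arrays, open where not well above background, bars are means of 3 arrays, and the dotted line is the floor at -4.13. In SNU-449, *ABCC2*, *ABCA5*, *ABCA7*, *ABCA12* and *ABCB4* are lowest with TGFβ and *ABCA1* is highest with TGFβ, and in PLC/PRF/5 *ABCC2* and *ABCG2* are lowest with TGFβ.

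The response to TGFβ was examined next. In SNU-449, TGFβ lowered *ABCC2*, *ABCA12*, *ABCB4*, *ABCA7* and *ABCA5* and raised *ABCA1*, so that 6 of the 9 genes tested were called against 10.5% of all 16102 genes tested in that line. The median log2 difference of the 9 genes was -0.66 against 0.016 over all genes. The transporters had been chosen with earlier results of these data known, so that neither the count nor the median tests them against all genes. TGFβ lowered *ABCC2* and *ABCG2* in PLC/PRF/5, 2 of the 7 genes tested against 13.5% of 16685 genes, and raised none past the threshold. With arrays scaled to their median in place of the 75th percentile, *ABCA1* and *ABCC2* stayed called in SNU-449 (1 higher and 1 lower) and 0 of 7 genes in PLC/PRF/5, and that scaling shifted the median TGFβ difference over all genes, by 0.028 in PLC/PRF/5 cells and by 0.098 in SNU-449 cells. Here and below, the share of all genes called is not given for alternative scalings, other alternative settings or arrays left out.

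*ABCC2* gave the largest fall in both lines. In SNU-449 its level was 1.77, 1.96 and 1.85 in control cells and 0.14, -0.04 and -0.08 with TGFβ, a log2 difference of -1.85 ± 0.11 (3.60-fold lower, adjusted p = 7.1e-06). Its PLC/PRF/5 level was 3.75, 3.68 and 3.77 in control cells and 3.13, 2.99 and 2.99 with TGFβ, a log2 difference of -0.69 ± 0.074 (1.62-fold lower, adjusted p = 2.3e-04). All 3 TGFβ arrays lay below all 3 control arrays in each line. The fall was larger in SNU-449, with a difference between the lines of -1.15 ± 0.13 on the log2 scale (adjusted p = 6.3e-06).

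*ABCA1* moved the other way in SNU-449, from 0.40, 0.73 and 0.55 to 2.04, 2.06 and 2.07 with TGFβ, a log2 difference of 1.49 ± 0.21 (2.81-fold higher, adjusted p = 0.0013). The 3 TGFβ arrays lay close together and above every other SNU-449 array. On the PLC/PRF/5 arrays *ABCA1* was 0.77, 0.61 and 0.62 with TGFβ, below the control arrays but not past the threshold (log2 difference -0.21 ± 0.085, adjusted p = 0.14). The 2 responses differed by 1.70 ± 0.23 (adjusted p = 5.6e-05), and 6.66% of the 14884 genes measured in both lines had TGFβ responses that differed. Of the 6 transporters measured in both lines, 3 did.

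The promoters of the genes that the results turn on are shown for these contrasting responses, *ABCC2* as the largest fall, *ABCA1* as the only rise, and *ABCA5*, whose response also differed between the lines. They run from 250 bases before to 50 bases after the annotated start (RefSeq, GRCh38.p14), which was given for 7 of the 10 genes, and 4 of these had a single start. Capitals mark CAGAC (SMAD-binding element), CACCTG (E-box bound by SNAI and ZEB factors), TGANTCA (AP-1) and TGACNNNGC (antioxidant response element), searched on both strands. No match overlapped another.
ABCC2 promoter, chr10:99782390-99782689, plus strand: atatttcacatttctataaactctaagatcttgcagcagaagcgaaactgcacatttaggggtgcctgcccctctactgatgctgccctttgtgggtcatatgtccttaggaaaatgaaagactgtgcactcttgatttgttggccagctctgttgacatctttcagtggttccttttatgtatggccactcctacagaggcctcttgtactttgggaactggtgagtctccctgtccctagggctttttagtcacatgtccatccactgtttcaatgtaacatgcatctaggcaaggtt
ABCA1 promoter, chr9:104928106-104928405, minus strand: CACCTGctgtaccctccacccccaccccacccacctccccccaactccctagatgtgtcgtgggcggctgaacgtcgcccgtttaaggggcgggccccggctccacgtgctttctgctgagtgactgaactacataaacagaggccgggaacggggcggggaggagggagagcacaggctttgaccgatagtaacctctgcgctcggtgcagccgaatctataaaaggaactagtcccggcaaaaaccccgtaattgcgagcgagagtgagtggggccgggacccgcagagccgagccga
ABCA5 promoter, chr17:69327084-69327383, minus strand: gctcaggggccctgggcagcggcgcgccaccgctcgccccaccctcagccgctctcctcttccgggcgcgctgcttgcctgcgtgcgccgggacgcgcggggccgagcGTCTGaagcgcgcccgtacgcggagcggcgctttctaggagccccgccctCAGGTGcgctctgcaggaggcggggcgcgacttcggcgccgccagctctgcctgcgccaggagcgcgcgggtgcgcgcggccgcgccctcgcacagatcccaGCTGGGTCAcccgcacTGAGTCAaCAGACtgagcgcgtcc

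The *ABCC2* window held 0 of the 4 motifs and had a GC content of 45.0%, below the median of 58.7% over all promoters. The *ABCA1* window, at 62.7% GC, held 1 E-box at its far end, and the *ABCA5* window, at 76.3% GC, held 2 SMAD-binding elements, 1 E-box, 1 AP-1 site and 1 antioxidant response element. The *ABCA7* window, the other with a single start, held none of the 4. Among genes with more than 1 start, the 2 windows of *ABCA12* held 1 and 2 SMAD-binding elements, the second also 1 E-box. For *ABCB1* 1 window held 1 AP-1 site, and for *ABCG2* 1 window held 1 antioxidant response element. Among all 35116 promoters, 45.3% held CAGAC, 20.6% CACCTG, 7.71% TGANTCA and 13.4% TGACNNNGC. Matches to CAGAC are thus common, and those to the other motifs less so. Enrichment of the motifs, and their part in the responses, was not tested.

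The other lipid transporters fell with TGFβ in SNU-449. *ABCA12* went from 0.38, 0.55 and 0.80 to -0.45, -0.48 and -0.25 (log2 difference -0.97 ± 0.15, adjusted p = 0.0022). *ABCA7* went from -1.13, -0.79 and -0.77 to -1.55, -1.66 and -1.88 (log2 difference -0.80 ± 0.13, adjusted p = 0.0026), and *ABCA5* from -0.51, -0.60 and -0.47 to -1.11, -1.13 and -1.32 (log2 difference -0.66 ± 0.14, adjusted p = 0.015). For each of the 3 the TGFβ arrays were the lowest of the 12 SNU-449 arrays. The *ABCA5* call was lost without replicate 3 of the control or of the TGFβ group.

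*ABCA5* in PLC/PRF/5 was 1.03, 1.02 and 0.99 with TGFβ, above the control arrays at 0.60, 0.79 and 0.89 but not past the threshold (log2 difference 0.25 ± 0.084, adjusted p = 0.071). The responses of the 2 lines differed by -0.92 ± 0.17 (adjusted p = 0.0011). For *ABCA7* the difference between the lines was -1.43 ± 0.45 (adjusted p = 0.058) with all arrays and -0.81 (adjusted p = 0.023) without PLC/PRF/5 control replicate 1. That array also set the PLC/PRF/5 response of *ABCA7*, a log2 difference of 0.63 ± 0.41 with it and 0.0037 without it, neither called.

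*ABCB4*, the phosphatidylcholine transporter, fell in SNU-449 from -2.16, -2.28 and -2.30 to -3.31, -3.06 and -3.11 (log2 difference -0.91 ± 0.17, adjusted p = 0.0077). *ABCB1* was 1.72, 1.63 and 1.57 with TGFβ, below the control arrays at 1.87, 2.65 and 2.01 but not past the threshold (log2 difference -0.54 ± 0.19, adjusted p = 0.11). *ABCG2* fell in PLC/PRF/5, from -0.89, -1.03 and -0.87 to -1.44, -1.44 and -1.49 (log2 difference -0.53 ± 0.099, 1.44-fold lower, adjusted p = 0.0061). Neither basolateral exporter was called. *ABCC1* was higher with TGFβ on all arrays, by 0.27 ± 0.13 in SNU-449 (adjusted p = 0.24) and 0.13 ± 0.090 in PLC/PRF/5 (adjusted p = 0.39), and *ABCC3* differed by -0.0061 ± 0.11 in SNU-449 (adjusted p = 0.98) and by 0.30 ± 0.14 in PLC/PRF/5 (adjusted p = 0.19).

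**Figure D3:**
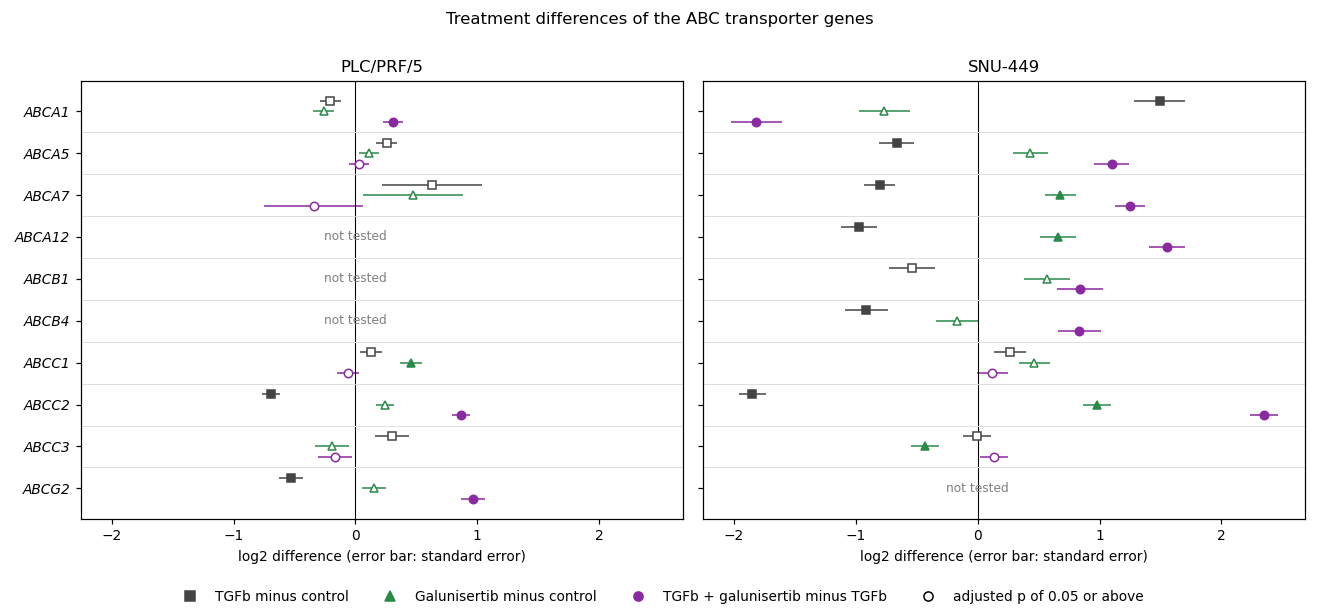
Log2 differences of the ABC transporter genes in PLC/PRF/5 (left) and SNU-449 (right), with standard errors from limma: TGFβ minus control (squares), galunisertib minus control (triangles) and TGFβ + galunisertib minus TGFβ (circles), filled where the adjusted p was below 0.05. In SNU-449 *ABCC2* ranges from -1.85 with TGFβ to 2.35 with galunisertib added to TGFβ, and *ABCA1* from 1.49 to -1.82.

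Galunisertib was then examined on its own and on top of TGFβ. Added to TGFβ in SNU-449, it raised *ABCC2*, *ABCA12*, *ABCA7*, *ABCA5*, *ABCB1* and *ABCB4* and lowered *ABCA1*, 7 of the 9 genes tested against 17.1% of all genes. All 6 genes that TGFβ changed in SNU-449 are among these 7, each in the opposite direction, in a comparison that shares the TGFβ arrays with the one above. In PLC/PRF/5 it raised *ABCG2*, *ABCC2* and *ABCA1*, 3 of 7 against 39.1% of all genes, a share near that of the array as a whole. Galunisertib alone raised *ABCC2*, *ABCA7* and *ABCA12* and lowered *ABCC3* in SNU-449, 4 of 9 against 7.43%, and raised *ABCC1* in PLC/PRF/5, 1 of 7 against 5.42%. The 4 fell to 2 without SNU-449 control replicate 1. With arrays scaled to their median the 4 became 1 (*ABCC2*), the 7 became 5 and the 1 became 0.

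*ABCC2* in SNU-449 was 2.25, 2.37 and 2.46 with both treatments, a log2 difference of 2.35 ± 0.11 from TGFβ alone (5.10-fold higher, adjusted p = 1.2e-06). With galunisertib alone it was 2.90, 2.99 and 2.63, 0.98 ± 0.11 above control (1.98-fold, adjusted p = 0.0011). No arrays of the 4 SNU-449 groups overlapped, in the order galunisertib, both, control and TGFβ. *ABCC2* in PLC/PRF/5 was 4.0, 3.86 and 3.85 with both treatments, 0.87 ± 0.074 above TGFβ alone (1.82-fold, adjusted p = 1.9e-05), and 4.04, 3.94 and 3.93 with galunisertib alone, 0.24 ± 0.074 above control and not past the threshold (adjusted p = 0.086). The order of the groups was the same in both lines, but in PLC/PRF/5 the groups with galunisertib overlapped. The effect of galunisertib alone on *ABCC2* was larger in SNU-449 by 0.74 ± 0.13 (adjusted p = 0.0017), the 1 transporter of 6 for which it differed between the lines, against 5.03% of genes. Without PLC/PRF/5 control replicate 1 the effect on *ABCA7* was called different as well (0.83, adjusted p = 0.027).

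*ABCA1* in SNU-449 was 0.63, 0.22 and -0.14 with both treatments, a log2 difference of -1.82 ± 0.21 from TGFβ alone (3.53-fold lower, adjusted p = 2.3e-04). With galunisertib alone it was 0.12, -0.59 and -0.14, below every control array but not past the threshold (log2 difference -0.77 ± 0.21, adjusted p = 0.054). Only TGFβ alone stood clear, and the other 3 groups overlapped with their neighbours in the order of levels. The 4 group means of *ABCA1* in PLC/PRF/5 spanned 0.36. Its level there was 1.11, 0.96 and 0.85 with both, 0.31 ± 0.085 above TGFβ alone (adjusted p = 0.015), and that call was lost without any of 3 of the 6 arrays (TGFβ replicate 2 or 3, or replicate 1 of both treatments).

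*ABCA12* in SNU-449 was 1.20, 1.11 and 1.16 with both treatments (log2 difference from TGFβ 1.55 ± 0.15, adjusted p = 6.8e-05) and 1.54, 1.15 and 1.02 with galunisertib alone (0.66 ± 0.15 above control, adjusted p = 0.026). *ABCA7* was -0.52, -0.37 and -0.45 with both (1.25 ± 0.13, adjusted p = 9.8e-05) and -0.17, -0.12 and -0.36 with galunisertib alone (0.68 ± 0.13 above control, adjusted p = 0.012). *ABCA5* was 0.05, -0.15 and -0.17 with both (1.10 ± 0.14, adjusted p = 5.3e-04) and -0.32, -0.21 and 0.26 with galunisertib alone (0.43 ± 0.14 above control, adjusted p = 0.098). For all 3, the arrays with galunisertib lay above the control arrays whether or not TGFβ was given. The rise of *ABCA12* with galunisertib alone was lost without replicate 1 or 2 of the control group or replicate 1 of the galunisertib group.

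*ABCB1* in SNU-449 was 2.33, 2.67 and 2.43 with both treatments (log2 difference from TGFβ 0.84 ± 0.19, adjusted p = 0.013) and 2.84, 2.54 and 2.86 with galunisertib alone (0.57 ± 0.19 above control, adjusted p = 0.097). *ABCB4* was -2.29, -2.26 and -2.41 with both (0.84 ± 0.17, adjusted p = 0.0084) and -2.25, -2.88 and -2.10 with galunisertib alone (-0.17 ± 0.17 from control, adjusted p = 0.59). The control arrays of *ABCB4* and of the brighter *ABCB1* probe overlapped with those of both galunisertib groups. With these probes TGFβ alone was the group that stood apart, although for *ABCB1* its difference from control was not called. On the second *ABCB1* probe TGFβ alone overlapped with its neighbours, and galunisertib alone was lowest. *ABCG2* in PLC/PRF/5 was -0.34, -0.41 and -0.73 with both treatments, 0.96 ± 0.099 above TGFβ alone (1.95-fold, adjusted p = 5.8e-05). With galunisertib alone *ABCG2* was -0.72, -0.80 and -0.82, 0.15 ± 0.099 above control (adjusted p = 0.40).

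The basolateral exporters did not share a pattern. *ABCC3* in SNU-449 was 2.88, 2.71 and 3.15 with galunisertib alone, below the other 3 groups (log2 difference from control -0.43 ± 0.11), with an adjusted p that rounds to 0.05 and that lay on the other side of the threshold without any 1 of 5 of the 6 arrays. That call was also lost with the replicate number as a block (adjusted p = 0.080). *ABCC1* in PLC/PRF/5 was 0.35, 0.53 and 0.49 with galunisertib alone, above all other PLC/PRF/5 arrays (log2 difference 0.45 ± 0.090, adjusted p = 0.020), a call lost without galunisertib replicate 3 and one that rests on a spot at the outer edge of the array, as the *ABCA12* probe does. In SNU-449 *ABCC1* was 0.74, 0.73 and 0.81 with galunisertib alone, above all other SNU-449 arrays, but not past the threshold (0.46 ± 0.13 above control, adjusted p = 0.055).

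TGFβ was also compared in the presence of galunisertib. In SNU-449, 1 of 9 transporters was called, *ABCC3*, higher by 0.56 ± 0.11 (adjusted p = 0.039), against 1.9% of all genes, and *ABCC2* was lower without passing the threshold (log2 difference -0.48 ± 0.11, adjusted p = 0.069). In PLC/PRF/5, 2 of 7 were called against 8.55%, *ABCA1* higher by 0.36 ± 0.085 and *ABCC1* lower (log2 difference -0.38 ± 0.090), both with an adjusted p of 0.032. These 3 calls depended on single arrays. With each of the 6 arrays left out in turn, *ABCC3* stayed called in 2 cases, *ABCA1* in 2 and *ABCC1* in 0, and the count fell to 0 in each line. The *ABCC3* call was also lost with the replicate number as a block. The change in the TGFβ response that galunisertib brought about (the interaction) was called for 1 of 9 transporters in SNU-449, *ABCC2* at 1.37 ± 0.16 (adjusted p = 0.0016), against 2.62% of genes, and the count rose to 2, 3 and 4 without galunisertib replicate 1, 2 and 3. In PLC/PRF/5 it was called for 4 of 7 against 8.76%, namely *ABCG2* at 0.81 ± 0.14 (adjusted p = 0.0077), *ABCC2* at 0.63 ± 0.10 (adjusted p = 0.0069), *ABCA1* at 0.57 ± 0.12 (adjusted p = 0.019) and *ABCC1* at -0.52 ± 0.13 (adjusted p = 0.034). The count of 4 fell to 2 without TGFβ replicate 3, the *ABCC1* call was lost without any 1 of 10 of the 12 arrays and with the replicate number as a block (adjusted p rounds to 0.05), and all of these interaction calls were lost with arrays scaled to their median.

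The 3 genes with 2 probes allowed a second reading, with every probe tested on its own. The second *ABCA1* probe was far dimmer and well above background on 12 PLC/PRF/5 and 9 SNU-449 arrays. In SNU-449 it was -3.24, -2.96 and -3.24 in control cells and -2.56, -2.35 and -2.34 with TGFβ, higher on all 3 arrays as with the brighter probe but not past the threshold (log2 difference 0.73 ± 0.24, adjusted p = 0.094), and it fell when galunisertib was added to TGFβ (-1.01 ± 0.24, adjusted p = 0.017, with 15.1% of probes called in that comparison). Its interaction in PLC/PRF/5 was 0.012 ± 0.31, against 0.57 for the brighter probe. There it gave -0.13 ± 0.22 for TGFβ under galunisertib (adjusted p = 0.74), where the brighter probe gave 0.36. For galunisertib added to TGFβ it gave -0.032 ± 0.22 (adjusted p = 0.94), against 0.31 with the brighter probe. The TGFβ response of the second probe differed between the lines by 0.87 ± 0.33 (adjusted p = 0.14), against 1.70 for the brighter probe. In PLC/PRF/5 the TGFβ difference was -0.14 with it and -0.21 with the brighter probe, neither called. Between the untreated lines the second probe gave a called difference (-0.66 ± 0.24, lower in SNU-449, adjusted p = 0.020, with 65.4% of probes called) and the brighter one did not (-0.31 ± 0.16, adjusted p = 0.10). Whether the probes differ from each other was not tested.

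The second *ABCB1* probe in SNU-449 was 0.41, -0.32 and 0.30 in control cells, -0.58, -0.02 and 0.20 with TGFβ, 0.25, -0.77 and -0.26 with galunisertib, and 0.76, 0.81 and 0.13 with both. Its groups overlapped with their neighbours, and it gave -0.39 ± 0.32 for galunisertib alone (adjusted p = 0.51) where the brighter probe gave 0.57. Galunisertib added to TGFβ gave 0.70 ± 0.32 with it (adjusted p = 0.18) and 0.84 with the brighter probe. The second *ABCC3* probe was 2.93, 2.99 and 3.01 in SNU-449 control cells, 3.26, 3.37 and 3.28 with TGFβ, 2.19, 2.69 and 2.64 with galunisertib, and 2.95, 2.93 and 2.71 with both. Like the brighter probe it was lowest with galunisertib alone (-0.47 ± 0.13 from control, adjusted p = 0.072). Galunisertib added to TGFβ lowered it (-0.44 ± 0.13, adjusted p = 0.049), whereas the brighter probe gave 0.14 ± 0.12. For TGFβ under galunisertib the second *ABCC3* probe gave 0.36 ± 0.13 (limma, adjusted p = 0.23), not called, against 0.56 with the brighter probe.

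**Figure D4:**
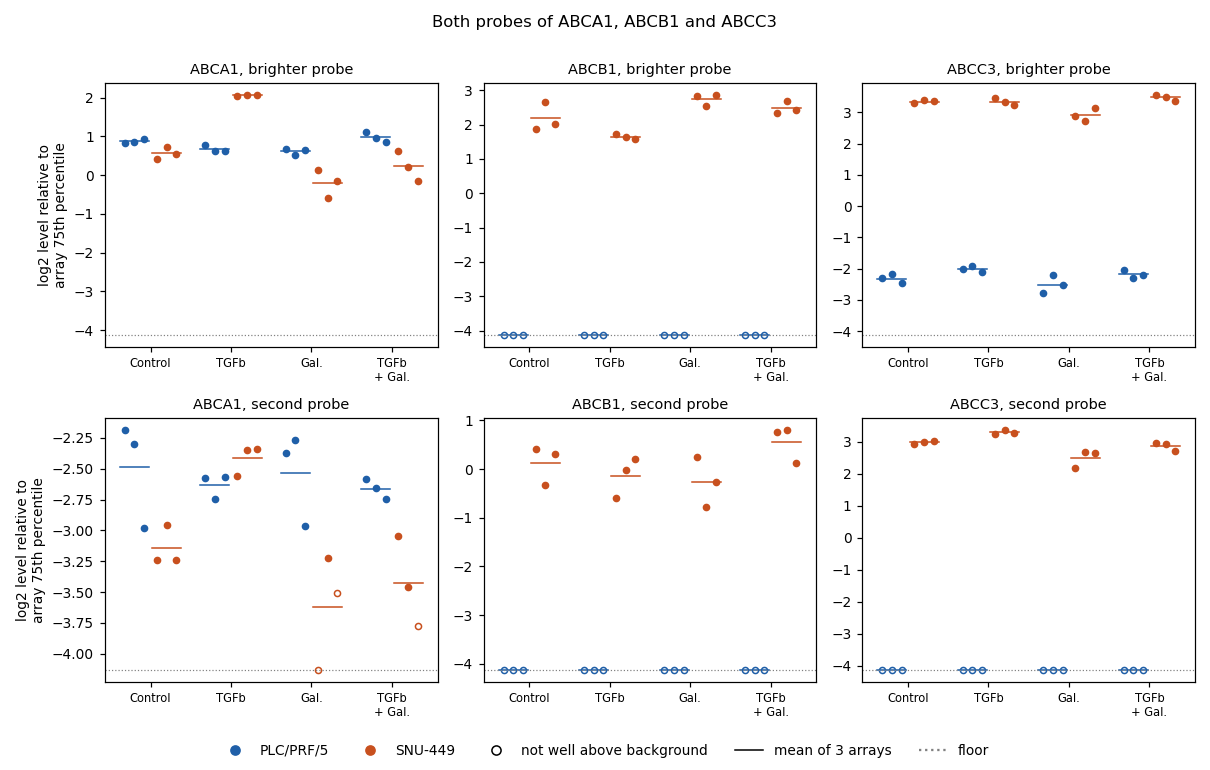
Level of the brighter and the second probe of *ABCA1*, *ABCB1* and *ABCC3* on each array, as log2 of the intensity over the array's 75th percentile, by treatment (Gal., galunisertib). Points are arrays, open where not well above background, bars are means of 3 arrays and the dotted line is the floor, and each panel has its own vertical axis. Both *ABCA1* probes are highest with TGFβ in SNU-449, whereas the *ABCB1* probes order the treatments differently.

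Of the other 38 genes of the ABC family on a fixed list, 37 had a probe and 25 were tested in the comparison of untreated lines, where 17 were called against 68.5% of all genes, 6 higher in SNU-449 and 11 higher in PLC/PRF/5. Among the largest differences were those of *ABCC4* (MRP4, an exporter of conjugates and nucleotides, log2 difference 4.91), *ABCB6* (a porphyrin transporter, 3.56) and *ABCD3* (a peroxisomal fatty acid transporter, -3.05). In SNU-449 TGFβ changed 1 of the 23 tested against 10.5% of all genes. It was *TAP2*, a subunit of the antigen peptide transporter, which fell (log2 difference -0.50 ± 0.12, adjusted p = 0.027), and it also fell in PLC/PRF/5 (-0.46 ± 0.11, adjusted p = 0.025). TGFβ changed 5 of 23 in PLC/PRF/5 against 13.5%, 2 higher and 3 lower, and *ABCE1*, a factor of ribosome recycling, was among those that fell (-0.45 ± 0.071, adjusted p = 0.0024). Galunisertib added to TGFβ raised 5 and lowered 0 of 23 in SNU-449 against 17.1% of all genes called, and raised 6 and lowered 6 in PLC/PRF/5 against 39.1%. The median TGFβ response of these genes was -0.098 in SNU-449, against -0.66 for the 9 described here. Those 9 were chosen with earlier results of these data known, so that the contrast is a description and not a test.

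Of 15 transcription factors and partners known to regulate ABC transporters, 11 were tested in PLC/PRF/5 and 10 in SNU-449. TGFβ changed 2 of the 11 (2 higher and 0 lower) and 3 of the 10 (2 higher and 1 lower), against 13.5% and 10.5% of all genes. *NR5A2* (LRH-1), a nuclear receptor of bile acid and cholesterol metabolism, rose with TGFβ in both lines, by 0.81 ± 0.17 in SNU-449 (adjusted p = 0.011) and 0.61 ± 0.076 in PLC/PRF/5 (adjusted p = 6.4e-04), and galunisertib added to TGFβ lowered it in SNU-449 (-1.03 ± 0.17, adjusted p = 0.0018). *KEAP1*, the inhibitor of NRF2, rose with TGFβ in SNU-449 (0.37 ± 0.084, adjusted p = 0.019), and *RXRA*, the partner of several nuclear receptors, in PLC/PRF/5 (0.27 ± 0.079, adjusted p = 0.048). *NR1H3* (LXRα), which activates *ABCA1* transcription, differed by 0.016 ± 0.082 with TGFβ in SNU-449 (adjusted p = 0.94), a value looked up after the *ABCA1* result was known. The part of these factors in the transporter levels was not tested.

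Across the 12 arrays of a line, the genes most like a called transporter were named by Pearson correlation, which here mostly follows the shared 4 treatments. For *ABCC2* these were *IGFBP3* (0.99), *UPP1* (0.98) and *NOB1* (0.98) in PLC/PRF/5, and for *ABCG2* *NKX2-4* (0.99), *ATAD1* (0.98) and *CYB5D1* (0.98). For *ABCA1* in SNU-449 they were *SIK1* (0.99), *ADAM19* (0.99) and *QPCT* (0.99), and for *ABCA7* *BMP4* (0.98), *SYTL1* (0.98) and *LINC01091* (0.98).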

How the data were processed

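Total RNA of 24 cultures was labelled with Cy3 and hybridised to human SurePrint G3 arrays, 8 on each of 3 slides. The authors deposited, for each array, the intensity of every spot from Agilent Feature Extraction 10.7.3.1 (per the file headers), background-subtracted and detrended but not normalized between arrays, and a log2 table from GeneSpring, used as an alternative, whose scale and centring were read from its values. Groups were taken from the sample labels.

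Control and outlier spots (111 to 216 per array) were left out, and no spot was saturated (0). Intensities were divided by each array's 75th percentile (145 to 262), raised to a floor of 5.70% of it, a limit not named in the written plan, and converted to log2. Between 43.8% and 51.4% of probes were well above background. Of 58201 probes, 31104 were named through RefSeq accessions and 10719 by LNCipedia names, while 16378 stayed unnamed. Tested probes were well above background throughout 1 or more groups of the fit, and the brightest probe stood for its gene. The fit used limma 3.58.1 in R 4.3.3 over the 12 arrays of a line, or all 24 for the lines, with Benjamini-Hochberg adjustment. The study's methods used a random variance t-test. Limma, which also shares the spread between genes, took its place, and a plain t-test, which does not, was an alternative. Differences between lines were read only for genes measured in both.

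Normexp, an alternative, used the median spot signal because the files hold no mean signal. The number of arrays limits the precision. On simulated data, TGFβ responses of 1 on the log2 scale were recovered for 85% of changed genes in PLC/PRF/5 (16656 genes) and 64% in SNU-449 (16060 genes). The simulation changed far fewer genes than were called for TGFβ in the data and used noise independent between arrays. These rates therefore need not hold for the data. Samples of 1 replicate number, which is also the slide, were paired (deviations from group means correlated over 0.1 in every pair, before rounding) for TGFβ in PLC/PRF/5 (0.17 to 0.31) and SNU-449 (0.13 to 0.22) and for galunisertib under TGFβ in SNU-449 (0.10 to 0.27), but not in the other comparisons within a line. The 10 genes and all lists were chosen with earlier results of these data known. All 10 genes, the 3 most alike genes of a called gene, and the called list genes with the largest differences could be named. Some genes of the lists are not reported here. Each probe tested on its own was added after the data were seen.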

Additional observations from a re-analysis of the deposited data

Results flagged for a closer look

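For 3 of the 6 transporters measured in both lines, the response to TGFβ differed between SNU-449 and PLC/PRF/5 by a direct test of the difference (limma, all 24 arrays). *ABCA1* differed by 1.70 on the log2 scale, *ABCA5* by -0.92 and *ABCC2* by -1.15. The response of *ABCC2* to galunisertib alone also differed, by 0.74. *ABCA1* and *ABCC2* kept their TGFβ difference under all 13 alternatives tried and without each of the 12 arrays in turn, whereas *ABCA5* and the galunisertib difference of *ABCC2* lost it with arrays scaled to their median or not scaled, and under the fold limit. The second *ABCA1* probe, tested on its own, gave a TGFβ difference between the lines of 0.87 ± 0.33 that was not called (limma, adjusted p = 0.14). The place on the slide cannot be told apart from TGFβ, galunisertib or line.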

How the results depend on the processing

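Of 44 called values of single transporters, 0 reversed under any alternative, 32 stayed called without each array in turn, and 16 did so under every alternative as well. Scaling to the array median shifted the median difference over all genes by -0.22 (SNU-449 interaction) to 0.34 (untreated lines) and lost 24 of the 44. No scaling lost 20, the replicate block 3, and a plain t-test, without the random variance model of the study, 12 of 35. The cause was not tested. The counts of transporters called changed as follows. The share of all genes called is not given for these alternatives or for arrays left out. The counts therefore do not show whether the transporters lost more calls than other genes did. With scaling to the array median, TGFβ went to 0 in PLC/PRF/5 and 2 in SNU-449, galunisertib to 0 and 1, TGFβ under galunisertib to 0 and 0, the interaction to 0 and 0, and the difference between lines in the galunisertib effect to 0. With no scaling, TGFβ in PLC/PRF/5, galunisertib in PLC/PRF/5, TGFβ under galunisertib in both lines, the PLC/PRF/5 interaction and the galunisertib difference between lines went to 0 and galunisertib in SNU-449 to 1. With a fold above 2 and an unadjusted P below the limit of the study, TGFβ went to 0 in PLC/PRF/5 and 2 in SNU-449, and 0 were left for galunisertib in both lines, galunisertib under TGFβ in PLC/PRF/5, TGFβ under galunisertib in both lines, the PLC/PRF/5 interaction and the galunisertib difference. Fits of only the groups compared gave 0 for galunisertib in PLC/PRF/5, 1 in SNU-449, and 0 for TGFβ under galunisertib in both. The t-test gave 0 for galunisertib and for TGFβ under galunisertib in both lines. Normexp gave 0 for galunisertib in PLC/PRF/5, 2 for TGFβ under galunisertib and 3 for the interaction in SNU-449. The percentile over bright probes gave 2 for galunisertib in PLC/PRF/5 and 3 for the SNU-449 interaction. A doubled floor gave 2 for galunisertib in PLC/PRF/5 and 2 for TGFβ under galunisertib in SNU-449. Without a filter, TGFβ under galunisertib gave 1 in PLC/PRF/5 and 0 in SNU-449, and galunisertib in SNU-449 2. The mean of all probes gave 1 and 0 for TGFβ under galunisertib. The basal count was 5 among genes above background on every array. The replicate block left 0 for TGFβ under galunisertib in SNU-449 and moved no other count by over 1.5 times.

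With each array left out in turn, the count ranged from 2 to 4 for the PLC/PRF/5 interaction (2 without TGFβ replicate 3), 0 to 2 for TGFβ under galunisertib in PLC/PRF/5 and 0 to 2 in SNU-449, 0 to 1 for galunisertib in PLC/PRF/5 and 2 to 4 in SNU-449 (2 without control replicate 1), 1 to 4 for the SNU-449 interaction (above 1 without a galunisertib array), and 1 to 2 for the galunisertib difference between lines (2 without PLC/PRF/5 control replicate 1). Signal at background left only a lower limit for the line differences of *ABCB1*, *ABCB4*, *ABCA12* and *ABCG2*.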
